A study of Homo sapiens with 6 samples.

Results

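The insulin-like growth factor (IGF) ligand, receptor and binding protein genes were followed from human embryonic stem cells to nascent mesoderm and smooth muscle cells. The genes were taken by name: IGF1, IGF1R, IGF2R and IGFBP1 to IGFBP7, 10 in all. A gene counted as measured where a probe set on the array was annotated to it alone, and where it had several such probe sets the brightest over the 6 arrays stood for it. By this rule 9 of the 10 were measured, among 18417 genes in all. IGFBP6 lay only on a probe set shared with C12orf57 and is given no value, and IGF2 lay on a probe set shared with INS and INS-IGF2 and was not analysed here.

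All samples came from the human embryonic stem cell line WA09. Undifferentiated cells kept in StemPro defined medium (hESC) were compared with ISL1-positive nascent mesoderm (INM), made in 4 days by adding Wnt3a (25 ng/ml) together with BMP4 (50 ng/ml) to defined medium, and with smooth muscle cells (SMC), made with the same 2 factors in 21 days. Each group had 2 samples of total RNA, each on 1 Affymetrix array. No label says that the 2 samples of a group were separate cultures, so a p-value measures no spread beyond these samples. That spread may be technical. For each gene it was pooled over all groups and drawn towards the spread of all genes. The INM pair therefore also enters the SE and p-value of SMC versus hESC. Values are log2 signals, where a difference of 1 is a doubling of the signal, and a difference was called at an adjusted p under 0.05 in limma's moderated test over all genes. RNA was taken from whole cultures, so fewer cells of a type and less RNA per cell cannot be told apart.

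IGF1 and IGF2 are secreted growth factors that act through the receptor tyrosine kinase IGF1R, which feeds the AKT and MAP kinase pathways and favours growth and survival. IGF2R, the cation-independent mannose 6-phosphate receptor, takes up IGF2 for breakdown in lysosomes. In the fluid around cells the ligands are held by the binding proteins IGFBP1 to IGFBP6, which keep them from IGF1R until proteases cleave the binding protein, and IGFBP7 is a related matrix protein that binds IGFs weakly. In vascular smooth muscle, IGF1 is known as a signal for survival, growth and the contractile state, and IGFBP3 and IGFBP5 are secreted by many mesenchymal cells.

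The labels were checked against marker genes. SOX2, a pluripotency factor, stood at 11.44 and 11.47 in hESC and between 5.61 and 5.81 in the other 4 arrays. Of 10 measured pluripotency markers, 7 were called lower in INM than in hESC (14.8% of all genes were) and 10 in SMC than in hESC (17.6%). ZFP42 (-0.54), LIN28A (-1.02) and LIN28B (0.68) were not called in INM versus hESC. LIN28A still read 10.39 and 11.76 in INM, so SOX2 does not stand for the whole list. ISL1, the factor by which INM is named, stood at 9.46 and 9.55 in INM, 5.54 and 5.28 in hESC and 6.41 and 6.31 in SMC. ACTA2, smooth muscle alpha-actin, stood at 13.09 and 13.03 in SMC, 11.97 and 10.85 in INM, and 6.44 and 6.41 in hESC, so it was already high in INM. MYH11, the myosin of mature smooth muscle, lay between 5.43 and 5.82 on all 6 arrays and was not called in SMC versus hESC (-0.13, adjusted p = 0.507). Of 10 measured smooth muscle markers, 7 were called higher in SMC than in hESC (19.7% of all genes were), 6 in INM than in hESC (18.9%) and 3 in SMC than in INM (9.94%). Of 9 measured fibroblast markers, 7 were called higher in SMC than in hESC, 4 in INM than in hESC (2 were lower) and 7 in SMC than in INM. The median change in SMC versus INM was 1.65 for fibroblast and 0.21 for smooth muscle markers. The name SMC is that of the labels, and these lists do not tell the 2 cell types apart. The INM arrays stood apart from each other: 700 of 18417 genes (3.80%) differed by more than 1 between them, against 16 in hESC and 11 in SMC. Group means of INM therefore rest on unlike arrays.

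IGF1, the ligand, rose at each step. Its probe set (7965873) read 5.35 and 5.47 in the hESC pair, 7.67 and 6.96 in the INM pair, and 8.20 and 8.29 in the SMC pair. The 3 groups did not overlap, and the order hESC, INM, SMC held for every array. The measured log2 signal was 1.90 higher in INM than in hESC (SE 0.23, adjusted p = 0.00152). From INM to SMC it rose a further 1.91-fold, by 0.94 (SE 0.23, adjusted p = 0.0308), and the measured difference between SMC and hESC was 2.84 (SE 0.23, adjusted p = 0.000215). The hESC mean of 5.41 lay just above 5.34, the median of the probe sets without a gene name, so IGF1 is not shown to be above background in hESC and no fold against hESC is given. The call of the second step ended without SMC replicate 1 (0.98) or without SMC replicate 2 (0.89). It also ended without either hESC array, where the change stayed at 0.94 because hESC is not compared. In every comparison here, leaving out an array of the group not compared alters only the estimate of spread. Either array of that group then gives the same fit. The calls of the first step and of the whole course were made in all 6 fits with 1 array left out.

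The receptors moved little beside the ligand. IGF1R (probe set 7986359) read 10.69 and 10.71 in the hESC pair, 11.20 and 10.74 in the INM pair, and 10.46 and 10.47 in the SMC pair. INM replicate 1 read highest and the SMC pair lowest. IGF1R was not called in any comparison: its changes were 0.27 from hESC to INM (95% interval -0.12 to 0.67, adjusted p = 0.244), -0.51 from INM to SMC (95% interval -0.90 to -0.11, adjusted p = 0.0754) and -0.23 from hESC to SMC (95% interval -0.63 to 0.16, adjusted p = 0.313). Without INM replicate 2 IGF1R changed by 0.50 from hESC to INM and by -0.74 from INM to SMC, with 1 INM array left. Its other probe set (7986383) had group means of 8.81 in hESC, 8.72 in INM and 8.41 in SMC, so both probe sets were lowest in SMC.

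IGF2R (probe set 8123181) read 9.24 and 9.49 in the hESC pair, 10.19 and 9.81 in the INM pair, and 9.82 and 9.86 in the SMC pair. Both later groups lay above both hESC arrays, and the INM and SMC arrays overlapped. The rise into INM was 0.64 (SE 0.16, adjusted p = 0.0262), a 1.55-fold difference. That call ended without hESC replicate 1 (0.51) or without hESC replicate 2 (0.76). It also ended without either SMC array, where the change stayed at 0.64 because SMC is not compared. SMC and hESC differed by 0.48 (95% interval 0.08 to 0.87, adjusted p = 0.0622), which was called without either INM array (adjusted p = 0.011). SMC and INM differed by -0.16 (95% interval -0.55 to 0.23, adjusted p = 0.543), or by 0.033 without INM replicate 1.

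**Figure D1:**
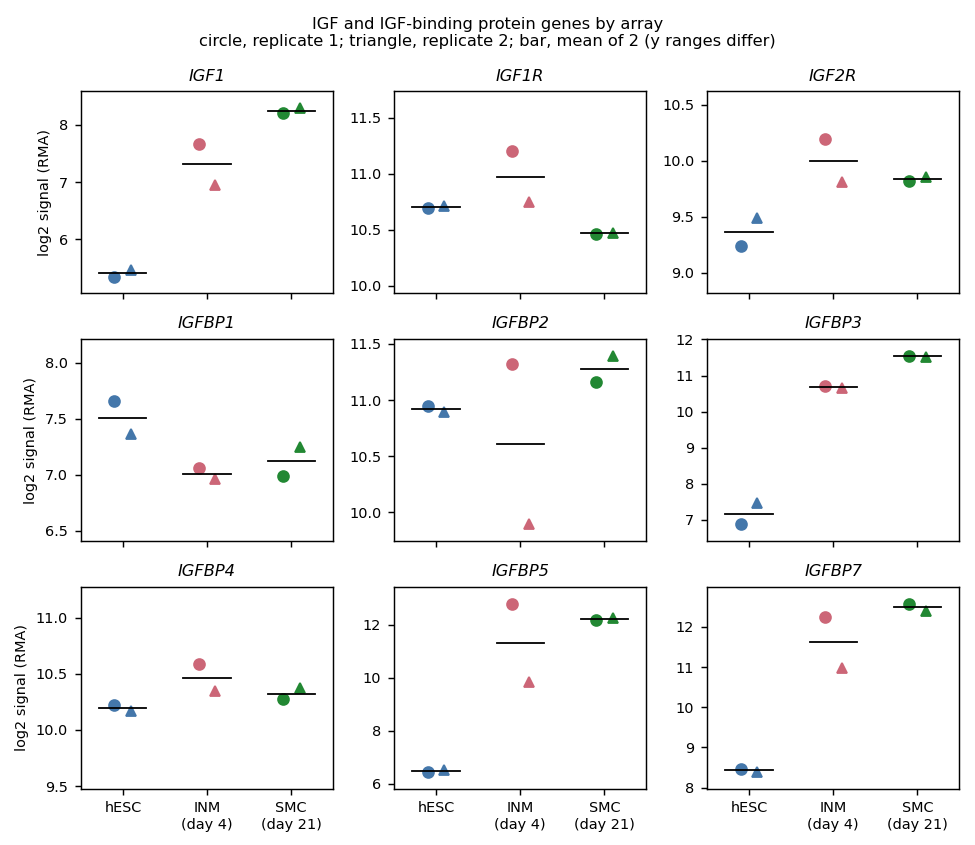
Log2 signal of the 9 measured genes (y axis, with a range of its own in each panel) in hESC, INM and SMC (x axis); each symbol is 1 array and each bar the mean of 2. IGF1, IGFBP3, IGFBP5 and IGFBP7 climb from hESC to SMC, while the INM arrays of IGFBP2, IGFBP5 and IGFBP7 lie far apart.

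IGFBP3, IGFBP5 and IGFBP7 had the widest ranges among the 9 genes, and all were higher in INM and in SMC than in hESC. IGFBP3, the main carrier of IGFs in blood (probe set 8139488), read 6.88 and 7.47 in the hESC pair, 10.70 and 10.65 in the INM pair, and 11.54 and 11.53 in the SMC pair. The hESC arrays were the less alike pair here, and the 3 groups did not overlap. IGFBP3 was 11.4-fold higher in INM than in hESC, or 3.51 on the log2 scale (SE 0.19, adjusted p = 0.000108), and 20.6-fold higher in SMC than in hESC, at 4.36 (SE 0.19, adjusted p = 3.03e-05). The second step added 0.86 (SE 0.19, adjusted p = 0.0253), a call that ended without SMC replicate 1 (0.85, adjusted p = 0.141) or SMC replicate 2 (0.87, adjusted p = 0.141).

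IGFBP5, a binding protein that attaches to matrix and is cleaved by several proteases (probe set 8058857), read 6.46 and 6.53 in the hESC pair, 12.79 and 9.83 in the INM pair, and 12.17 and 12.25 in the SMC pair. All later arrays lay above both hESC arrays, but INM replicate 1 was above both SMC arrays and INM replicate 2 below both. IGFBP5 was 28.2-fold higher in INM than in hESC, at 4.82 on the log2 scale (SE 0.82, 95% interval 2.84 to 6.79, adjusted p = 0.00592). The size of that rise depended on the array: it was 6.30 without INM replicate 2 and 3.34 without INM replicate 1, and without hESC replicate 1 the call ended (4.78, adjusted p = 0.0518). SMC was 52.5-fold higher than hESC, at 5.72 (SE 0.82, adjusted p = 0.00232), the largest change among the 9 genes. Between INM and SMC the difference of 0.90 was not called (95% interval -1.08 to 2.87, adjusted p = 0.494), and its direction turned with the INM array. It was 2.38 without INM replicate 1 and -0.58 without INM replicate 2. With 1 INM array left, the fit takes its spread from the hESC and SMC pairs, so no call is given for these values.

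IGFBP7, the weakly IGF-binding matrix protein (probe set 8100541), read 8.46 and 8.39 in the hESC pair, 12.26 and 10.98 in the INM pair, and 12.58 and 12.41 in the SMC pair. The groups did not overlap, with INM replicate 1 close to the SMC arrays. IGFBP7 was 9.14-fold higher in INM than in hESC, at 3.19 (SE 0.37, adjusted p = 0.00138), and 16.7-fold higher in SMC than in hESC, at 4.06 (SE 0.37, adjusted p = 0.000364). The second step of 0.87 was not called (95% interval -0.01 to 1.76, adjusted p = 0.15). With 1 array left out it ran from 0.24 to 1.51, the latter without INM replicate 1.

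The sequences just before the starts of IGFBP3 and IGFBP5 are shown because both genes were called higher in INM and in SMC than in hESC. That of IGFBP4 is shown because it was not called in any comparison. Each is the 250 bases before the gene's RefSeq start in build GRCh38.p14, 5′ to 3′ on the gene's strand: chr7:45921273-45921522 (minus strand) for IGFBP3, chr2:216695550-216695799 (minus strand) for IGFBP5 and chr17:40443200-40443449 (plus strand) for IGFBP4. Capitals mark matches to TATNNA, a loose TATA box, or to GGGCGG, a GC box, on either strand.
IGFBP3: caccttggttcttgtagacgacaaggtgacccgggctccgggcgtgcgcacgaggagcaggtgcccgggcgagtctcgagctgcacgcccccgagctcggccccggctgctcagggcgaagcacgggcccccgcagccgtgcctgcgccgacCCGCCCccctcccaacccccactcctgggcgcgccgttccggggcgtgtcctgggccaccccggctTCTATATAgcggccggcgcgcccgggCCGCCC
IGFBP5: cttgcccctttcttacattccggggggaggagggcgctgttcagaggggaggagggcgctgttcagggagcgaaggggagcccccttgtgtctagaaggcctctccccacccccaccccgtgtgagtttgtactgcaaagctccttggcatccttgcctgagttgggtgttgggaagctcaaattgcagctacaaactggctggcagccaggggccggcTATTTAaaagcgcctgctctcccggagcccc
IGFBP4: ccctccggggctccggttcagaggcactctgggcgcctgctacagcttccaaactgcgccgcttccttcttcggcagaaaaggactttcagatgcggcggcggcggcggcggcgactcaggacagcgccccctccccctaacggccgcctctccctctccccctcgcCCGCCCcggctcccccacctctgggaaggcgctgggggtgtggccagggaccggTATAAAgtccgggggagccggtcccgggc
The TATNNA match begins 30 bases before the start in IGFBP3 on the gene's own strand, where TATATA also overlaps matches on the other strand, 31 bases before it in IGFBP5 and 29 bases before it in IGFBP4. GGGCGG was matched 2 times in IGFBP3, 1 time in IGFBP4 and 0 times in IGFBP5, each time on the opposite strand. The G and C content of the windows was 76.0%, 61.2% and 71.6% in IGFBP3, IGFBP5 and IGFBP4. Of 35116 windows of this length in the RefSeq table, 45.6% held TATNNA and 42.6% held GGGCGG, at any place on either strand. A match alone therefore shows no working site, and how often TATNNA lies about 30 bases before a start was not counted. The window was found for 8 of the 10 genes, and not for IGFBP1 and IGFBP7.

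The remaining binding proteins moved less. IGFBP2, a binding protein of fetal tissues (probe set 8048205), read 10.94 and 10.89 in the hESC pair, 11.32 and 9.90 in the INM pair, and 11.16 and 11.39 in the SMC pair. INM replicate 1 lay with the SMC arrays and INM replicate 2 below all others. No difference was called: -0.31 from hESC to INM (95% interval -1.30 to 0.68, adjusted p = 0.599), 0.67 from INM to SMC (95% interval -0.32 to 1.66, adjusted p = 0.308) and 0.36 from hESC to SMC (95% interval -0.63 to 1.35, adjusted p = 0.534). Without INM replicate 1 the differences were -1.02 from hESC to INM and 1.38 from INM to SMC. Without INM replicate 2 the same differences were 0.40 and -0.046, so their direction rested on which INM array was used. Without either INM array SMC was called higher than hESC, at 0.36 (adjusted p = 0.0332).

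IGFBP4, the binding protein that the protease PAPPA is best known to cleave (probe set 8007100), read 10.22 and 10.17 in the hESC pair, 10.59 and 10.35 in the INM pair, and 10.28 and 10.37 in the SMC pair. The 6 arrays lay within a narrow span. Its changes were 0.27 into INM (95% interval -0.03 to 0.58, adjusted p = 0.146), -0.14 from INM to SMC (95% interval -0.45 to 0.16, adjusted p = 0.482) and 0.13 from hESC to SMC (95% interval -0.17 to 0.43, adjusted p = 0.465). The first was 0.39 without INM replicate 2.

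IGFBP1, an insulin-regulated product of liver and decidua (probe set 8132694), went the other way. It read 7.66 and 7.36 in the hESC pair, 7.06 and 6.96 in the INM pair, and 6.99 and 7.25 in the SMC pair, so that all later arrays lay below both hESC arrays. The fall into INM was -0.50 (SE 0.15, adjusted p = 0.046), a 1.41-fold difference. This call was weak: it ended in 5 of the 6 fits with 1 array left out and was kept without INM replicate 1. Of those 5, the 2 without an SMC array are the same fit. It also ended when the array values were quantile normalized (-0.43, adjusted p = 0.0808) and with array weights (-0.50, adjusted p = 0.102). SMC and hESC differed by -0.39 (95% interval -0.75 to -0.02, adjusted p = 0.0906) and SMC and INM by 0.11 (95% interval -0.26 to 0.48, adjusted p = 0.664), or by -0.019 without SMC replicate 2. With array weights the difference between SMC and hESC was called (adjusted p = 0.0454). Of 9 hepatic endoderm markers, 0 were called in any comparison by limma, with 0 from hESC to INM, 1 from INM to SMC and 2 from hESC to SMC at an unadjusted p under 0.05, and ALB, AFP, FGA and FGB lay under 5.34 on every array.

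**Figure D2:**
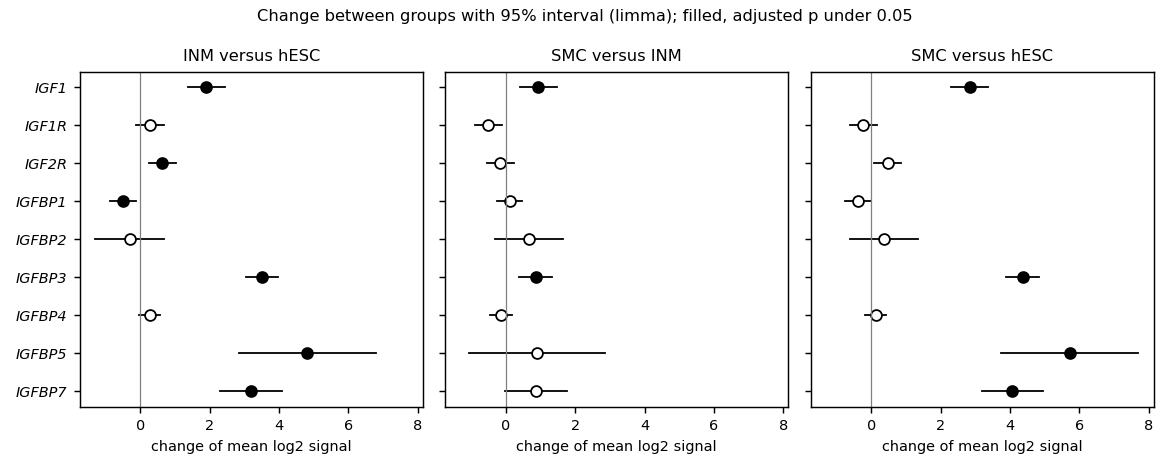
Change of the mean log2 signal (x axis) of each gene (y axis) in the 3 comparisons, with its 95% interval from limma; filled points have an adjusted p under 0.05. The changes of IGFBP3, IGFBP5 and IGFBP7 from hESC exceed 3, and the interval of IGFBP5 is the widest.

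Read together, 5 of the 9 measured genes were called higher in INM than in hESC (IGF1, IGF2R, IGFBP3, IGFBP5 and IGFBP7) and 1 lower (IGFBP1), where 33.8% of all genes were called, 18.9% higher and 14.8% lower. The median change of the 9 genes was 0.64, against -0.03 over all genes. In SMC versus INM, 2 were called higher (IGF1 and IGFBP3) and 0 lower, where 21.0% of all genes were called (9.94% higher and 11.1% lower), with a median change of 0.67 against -0.02. At an unadjusted p under 0.05 limma gave 3 genes there, 1 of them lower (IGF1R). In SMC versus hESC, 4 were called higher (IGF1, IGFBP3, IGFBP5 and IGFBP7) and 0 lower, where 37.2% of all genes were called (19.7% higher and 17.6% lower), with a median change of 0.48 against -0.05. At an unadjusted p under 0.05 there were 6, 1 of them lower (IGFBP1). The first and last comparisons share the hESC arrays, and the first and second share the INM arrays, so their counts are not independent. The counts that follow come from fits with 1 array left in a group, so the spread of that group does not enter them. With 1 array left out the counts of called genes ran from 3 (without hESC replicate 1) to 7 (without either INM array) for INM against hESC. For SMC against INM they ran from 0 (without either SMC array, with 2 at an unadjusted p under 0.05 in limma) to 5 (without INM replicate 1), with 4 without INM replicate 2 and 1 without either hESC array.

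INM replicate 1 read higher than INM replicate 2 in all 9 genes. Over all 18417 genes it was the higher in 48.7%. The difference was 2.96 for IGFBP5, 1.43 for IGFBP2 and 1.27 for IGFBP7, then 0.71 for IGF1, 0.46 for IGF1R, 0.39 for IGF2R, 0.24 for IGFBP4, 0.10 for IGFBP1 and 0.05 for IGFBP3. Thus 3 of the 9 genes differed by more than 1 between the INM arrays, where 3.80% of all genes did, 1.71% with replicate 1 the higher. In the hESC pair the largest difference was 0.59 (IGFBP3) and in the SMC pair 0.26 (IGFBP1), with replicate 1 the higher in 4 and 2 of the 9 genes. IGFBP3, in spite of its large rise, was the gene most alike between the INM arrays.

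**Figure D3:**
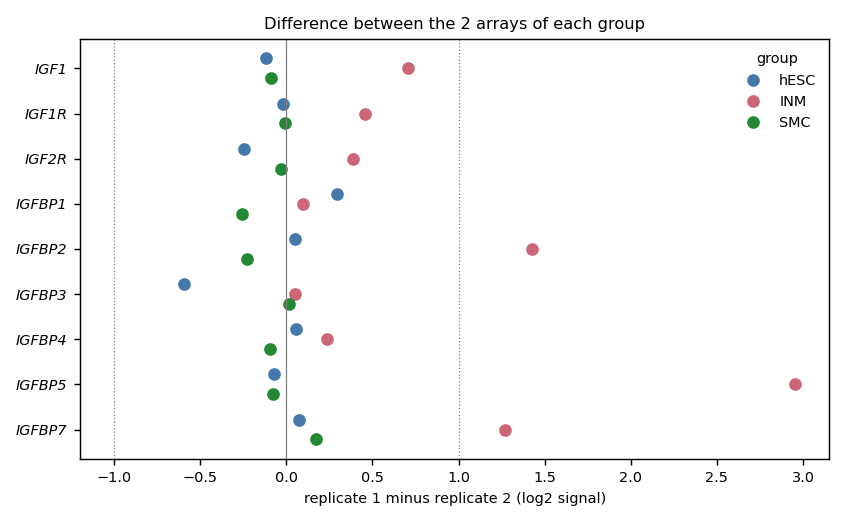
Replicate 1 minus replicate 2 in log2 signal (x axis) for each gene (y axis) within hESC, INM and SMC; dotted lines mark a difference of 1 either way. All INM points lie right of 0, with IGFBP5 at 2.96, while the hESC and SMC points lie on both sides.

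Markers of other cell types also differed between the INM arrays. Trophoblast markers were the higher in replicate 1 in 7 of 8 measured genes (median difference 1.13), and the log2 of their summed signal was 12.12 and 10.75 in INM replicates 1 and 2, 8.60 and 8.38 in hESC, and 9.11 and 9.28 in SMC. The genes of this list called higher in INM than in hESC were TFAP2A (11.49 and 10.27 in INM) and KRT7 (9.83 and 8.05). CGA (7.75 and 5.12 in INM) and HSD3B1 (8.06 and 6.35) were not called in that comparison but also read higher in replicate 1. TFAP2A was the largest term of the sum on both INM arrays. The KRT7 call ended without hESC replicate 1 (adjusted p = 0.0537) or replicate 2 (adjusted p = 0.065), and PSG1 lay under 5.34 on every array. Fibroblast markers were the higher in replicate 1 in 6 of 9 (median difference 0.65), with summed signals of 13.39 and 12.88 in INM, 11.99 on both hESC arrays and 14.90 and 14.86 in SMC. ISL1 and lateral mesoderm markers were the higher in replicate 1 in only 1 of 11 (median difference -0.98), with summed signals of 13.44 and 14.09 in INM. Endothelial markers were the higher in replicate 1 in 5 of 7, but their summed signal was 9.17 in replicate 1 and 10.76 in replicate 2. TEK was the largest term of both sums (7.97 and 10.52), a gene also read at 8.84 and 8.95 in hESC, while PECAM1 read 5.66 and 5.32 and VWF 5.45 and 5.35 in INM. These marker signals do not show that such cells were present. Their link to the differences of IGFBP2, IGFBP5 and IGFBP7 was not tested.

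The enzymes that free IGFs from binding proteins were listed with their inhibitors and the acid-labile subunit. Of 9 measured genes in this list, 5 rose in INM versus hESC (PAPPA, PAPPA2, HTRA1, ADAM9 and ADAM12) and 1 fell (STC1), with a median change of 0.61, where 33.8% of all genes were called. PAPPA, a metalloprotease that cleaves IGFBP4 and IGFBP5, read 5.63 and 4.93 in the hESC pair, 9.52 and 8.36 in the INM pair, and 10.58 and 10.62 in the SMC pair. Its groups did not overlap, and its hESC mean lay under 5.34, so no size of its change from hESC is given. PAPPA was called higher than in hESC both in INM (adjusted p = 0.00101) and in SMC (adjusted p = 0.000155), and it rose by 1.66 from INM to SMC (SE 0.39, adjusted p = 0.028). The last of these calls ended without either hESC array (1.66, adjusted p = 0.051), SMC replicate 1 (1.68, adjusted p = 0.141) or SMC replicate 2 (1.64, adjusted p = 0.153).

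ADAM12, a protease of IGFBP3 and IGFBP5, read 5.76 and 6.12 in the hESC pair, 7.94 and 8.02 in the INM pair, and 10.80 and 10.78 in the SMC pair. Its replicates were close in each group, the INM pair included. It rose by 2.04 into INM (SE 0.15, adjusted p = 0.000227) and by 2.81 from INM to SMC (SE 0.15, adjusted p = 0.000129), and was 28.8-fold higher in SMC than in hESC. HTRA1, a serine protease that can cleave IGFBP5, read 7.55 and 8.26 in the hESC pair, 10.93 and 10.28 in the INM pair, and 10.95 and 11.06 in the SMC pair, so its rise of 2.70 (SE 0.29, adjusted p = 0.00101) lay in the first step and the second, at 0.40, was not called (adjusted p = 0.382). ADAM9, which can cleave IGFBP5, rose by 1.68 into INM (SE 0.15, adjusted p = 0.000525) and by 0.54 from INM to SMC (SE 0.15, adjusted p = 0.0482). The second call ended in 5 of the 6 fits with 1 array left out, of which the 2 without an hESC array are the same fit. PAPPA2 rose by 0.61 into INM, a call that ended when hESC replicate 1 was left out (0.59, adjusted p = 0.176), when hESC replicate 2 was (0.62, adjusted p = 0.148) and when INM replicate 1 was (0.49, adjusted p = 0.0828).

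STC1 and STC2, the stanniocalcins, are secreted inhibitors of PAPPA. STC1 read 10.01 ± 0.01 (SD, n = 2) in the hESC pair, 7.90 and 7.71 in the INM pair, and 9.08 and 9.19 in the SMC pair, lowest in INM with no overlap between groups. It was 4.61-fold lower in INM than in hESC (-2.20, SE 0.12, adjusted p = 0.000108) and rose from INM to SMC by 1.33 (SE 0.12, adjusted p = 0.00091), ending below hESC (-0.87, SE 0.12, adjusted p = 0.00201). STC2 read 6.75 and 6.99 in the hESC pair, 6.54 and 6.03 in the INM pair, and 8.72 and 8.61 in the SMC pair. It was 5.20-fold higher in SMC than in INM (2.38, SE 0.19, adjusted p = 0.000576), and the difference between INM and hESC was not called (-0.58, adjusted p = 0.057). In SMC versus INM 5 of the 9 genes rose (PAPPA, STC1, STC2, ADAM9 and ADAM12) and 0 fell, by limma, with 0 falls also at an unadjusted p under 0.05, where 21.0% of all genes were called. In SMC versus hESC, where 37.2% of all genes were called, 5 rose (PAPPA, STC2, HTRA1, ADAM9 and ADAM12) and 2 fell (STC1 and ADAM28), with a median change of 1.80. The ADAM28 mean in SMC lay under 5.34, and its call ended without either hESC or either SMC array, with adjusted p up to 0.21. IGFALS, the acid-labile subunit that joins IGF and IGFBP3 in blood, was not called in any comparison, with group means between 6.92 and 7.04.

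**Figure D4:**
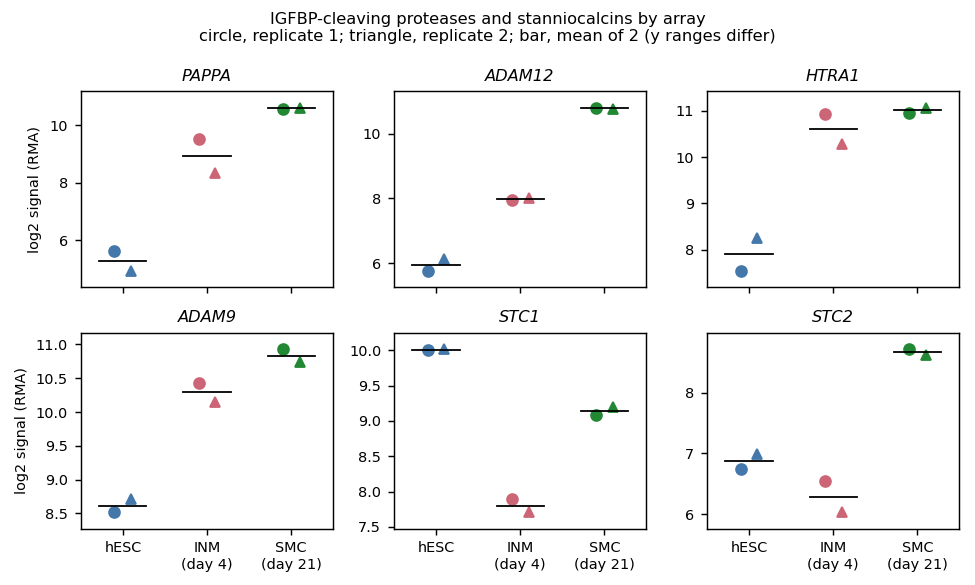
Log2 signal (y axis, with a range of its own in each panel) of 4 proteases that cleave IGF-binding proteins and of the 2 stanniocalcins in hESC, INM and SMC (x axis); each symbol is 1 array and each bar the mean of 2. PAPPA, ADAM12, HTRA1 and ADAM9 lie lowest in hESC, whereas STC1 and STC2 lie lowest in INM.

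Genes that share the IGF-binding domain without being classical carriers formed a further list of 13. From hESC to INM 3 rose (CCN4, HTRA1 and HTRA3) and 1 was called lower (CCN6), which lay under 5.34 on all 6 arrays. From INM to SMC 3 rose (CCN3, CCN4 and HTRA3) and 1 fell (IGFBPL1). Over the whole course 5 rose (CCN2, CCN3, CCN4, HTRA1 and HTRA3) and 1 fell (IGFBPL1). The shares called among all genes were 33.8%, 21.0% and 37.2% in these comparisons. HTRA1 is counted here and among the proteases. CCN4, a matricellular protein induced by Wnt signals, rose by 1.28 (SE 0.17) and then by 1.32 (SE 0.17), and CCN3 rose in the second step, by 1.97 (SE 0.12, adjusted p = 0.000199), after a change of -0.04 in the first (adjusted p = 0.799). The median change of this list in SMC versus hESC was 0.62. The calls made in every fit with 1 array left out were 2 of 4, 2 of 4 and 5 of 6 in the 3 comparisons, and those that ended were CCN6 and HTRA3, then IGFBPL1 and HTRA3, then CCN2, with adjusted p up to 0.194.

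Of 3 IGF2 mRNA-binding proteins, which control the translation and stability of IGF2 and other messages in embryos, 2 were called lower in SMC than in INM and hESC. Among all genes 11.1% were called lower in SMC than in INM and 17.6% in SMC than in hESC. IGF2BP1 was 0.63 higher in INM than in hESC (SE 0.13, adjusted p = 0.0122), then fell from INM to SMC (-1.09, SE 0.13, adjusted p = 0.00253) and was lower in SMC than in hESC (-0.46, SE 0.13, adjusted p = 0.032). That last call ended without either hESC or either SMC array, with adjusted p up to 0.154. IGF2BP3 fell from INM to SMC (-0.75, SE 0.20, adjusted p = 0.0443) and from hESC to SMC (-1.29, SE 0.20, adjusted p = 0.00344). IGF2BP2 was not called in any comparison, with changes of 0.12, -0.03 and 0.09. The first IGF2BP1 call ended without hESC replicate 1 (adjusted p = 0.0733) or replicate 2 (adjusted p = 0.0701), and that of IGF2BP3 from INM to SMC ended without either hESC array (adjusted p = 0.0919) or without SMC replicate 1 (adjusted p = 0.162) or replicate 2 (adjusted p = 0.223).

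Among 14 measured receptors and adaptors around IGF1R, 5 rose in INM versus hESC (GHR, IRS1, GRB2, SOS1 and GAB1) and 2 fell (INSR and IRS4). In SMC versus INM 0 rose, by limma, and 4 fell (IRS1, GRB10, GRB14 and GAB1), with 7 at an unadjusted p under 0.05, 5 of them lower. In SMC versus hESC 4 rose (GHR, SHC1, GRB2 and SOS1) and 3 fell (INSR, IRS4 and GRB14). Among all genes 33.8%, 21.0% and 37.2% were called in the same comparisons. IRS1, the docking protein of IGF1R and the insulin receptor, read 7.12 and 7.18 in the hESC pair, 8.50 and 8.82 in the INM pair, and 7.36 and 7.65 in the SMC pair. It was highest in INM, with no overlap between groups, rising by 1.52 (SE 0.16, adjusted p = 0.000968) and falling again (-1.16, SE 0.16, adjusted p = 0.00418). INSR, the insulin receptor, fell into INM (-0.98, SE 0.18, adjusted p = 0.0083) and was lower in SMC than in hESC (-1.18, SE 0.18, adjusted p = 0.00325). GRB14, an adaptor that inhibits the insulin receptor, was called lower in SMC (5.05 and 4.93) than in hESC (7.19 and 7.11; adjusted p = 0.00145). GHR, the growth hormone receptor, was called higher in SMC (7.01 and 6.94) than in hESC (4.98 and 5.02; adjusted p = 0.0044). The SMC arrays of GRB14 and the hESC arrays of GHR lay under 5.34, so no size of these changes is given. The calls made in every fit with 1 array left out were 3 of 7, 1 of 4 and 4 of 7 in the 3 comparisons, and those that ended were INSR, GHR, GRB2 and SOS1, then GRB10, GRB14 and GAB1, then SHC1, GRB2 and SOS1, with adjusted p up to 0.219.

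In the branch from phosphoinositide 3-kinase to AKT and FOXO, 18 of 22 genes were measured. In INM versus hESC 7 rose (PIK3R1, PIK3R3, PDPK1, AKT1, AKT2, TSC2 and GSK3B) and 0 fell, by limma, with 0 falls also at an unadjusted p under 0.05. PIK3R1, a regulatory subunit of the kinase, read 7.38 and 7.33 in the hESC pair, 9.81 and 9.31 in the INM pair, and 9.12 and 8.94 in the SMC pair, a rise of 2.20 (SE 0.18, adjusted p = 0.000368) that left it 1.68 above hESC at day 21 (SE 0.18, adjusted p = 0.000701). AKT1 rose by 1.32 (SE 0.14) and PIK3R3 by 1.24 (SE 0.14) in the same step. From INM to SMC 1 rose (EIF4EBP1) and 4 fell (PIK3CB, PDPK1, MTOR and GSK3B), with PIK3CB, a catalytic subunit, at -1.66 (SE 0.18, adjusted p = 0.00172). In SMC versus hESC 7 rose (PIK3R1, PIK3R3, PDPK1, AKT1, TSC2, EIF4EBP1 and GSK3B) and 3 fell (PIK3CB, MTOR and FOXO4). The shares of this list that were called lay near those of all genes in INM versus hESC (33.8%) and SMC versus INM (21.0%), and 37.2% of all genes were called in SMC versus hESC. The calls made in every fit with 1 array left out were 6 of 7, 1 of 5 and 4 of 10 in the 3 comparisons. Those that ended were AKT2, then PDPK1, MTOR, EIF4EBP1 and GSK3B, then PDPK1, MTOR, TSC2, EIF4EBP1, FOXO4 and GSK3B, with adjusted p up to 0.214.

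For the 3 genes with the widest ranges of group means, the genes with the most similar values over the 6 arrays were sought among the other 18416, each gene centred on its own mean. The smallest root mean square difference from IGFBP5 was that of TGFBI, a matrix protein induced by TGF-beta (0.369), then SLITRK6 (0.439) and the Wnt antagonist DKK1 (0.552), all of which also read higher in INM replicate 1 than in replicate 2. IGFBP3 was nearest to ENDOD1 (0.315), ARID5B (0.336) and SERPINB8 (0.345). IGFBP7 was nearest to the chemokine CXCL14 (0.0781), then ENDOD1 (0.169) and TIMP3, an inhibitor of metalloproteases (0.215). CXCL14 read 7.40 and 7.45 in the hESC pair, 11.39 and 10.13 in the INM pair, and 11.59 and 11.56 in the SMC pair, and so shared the gap between the INM arrays. Of the other 8 measured genes, IGFBP7 was the closest to IGFBP3 (0.429), at rank 12 of all genes, and to IGFBP5 (0.917), at rank 15. These are descriptions over 6 arrays in 3 groups, and likeness in the gap between the INM arrays was part of how the genes were chosen.

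IGFBP1 and IGFBP3 are neighbours on chromosome 7, and IGFBP2 and IGFBP5 on chromosome 2, by gene order in the RefSeq table. In both pairs 1 gene rose strongly in INM and SMC (IGFBP3, IGFBP5) and the other did not. Next to IGFBP3, TNS3, a focal adhesion protein, read 7.02 and 7.24 in the hESC pair, 9.87 and 9.23 in the INM pair, and 8.58 and 8.70 in the SMC pair. It rose by 2.42 into INM (SE 0.22, adjusted p = 0.000529) and then fell (-0.91, SE 0.22, adjusted p = 0.0296), a second call that ended without either hESC array (adjusted p = 0.0663) or without SMC replicate 1 (adjusted p = 0.167) or replicate 2 (adjusted p = 0.137). On the outer side of IGFBP2, the ribosomal protein gene RPL37A was lower in INM than in hESC (-0.57, adjusted p = 0.0139), a call that ended without hESC replicate 1 (adjusted p = 0.0677) or replicate 2 (adjusted p = 0.0829). It was called higher in SMC than in INM (0.61, adjusted p = 0.0164), which ended without SMC replicate 1 (adjusted p = 0.123) or replicate 2 (adjusted p = 0.0982), and SMC and hESC differed by 0.04 (adjusted p = 0.813). On the outer side of IGFBP5, TNP1, a protein of sperm chromatin, was not called in any comparison, with group means between 5.19 and 5.42. CCDC201, next to IGFBP1, was not measured here.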

How the data were processed

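Gene expression was measured in 6 samples of WA09 cells (hESC, INM and SMC, 2 arrays each). The authors deposited log2 values for 33297 probe sets, and the submitters' processing notes name RMA and limma, with no version. Values ran from 1.36 to 14.09, and the log2 scale was read from them. No source used here gives the RMA settings or a genome build, and the small number of arrays sets the precision. Of the probe sets, 19460 had 1 symbol, 1754 several and 12083 none here. Symbols were updated through Entrez identifiers (19429 matched) to a GRCh38.p14 gene table. Promoter windows came from RefSeq.

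With limma 3.58.1 (R 4.3.3), lmFit and eBayes fitted 3 group means to the 6 arrays (3 residual and 3.56 prior degrees of freedom), without a signal filter. Tests were two-sided, with Benjamini-Hochberg adjustment over 18417 genes. The fit was tested on simulated data in which each gene had the same spread in all 3 groups. That test therefore does not cover the wider spread of the INM pair. Folds are given where both group means reached 5.34. Named genes were the members, up to 4 called genes of each pathway list with the largest change, genes behind counts of 5 or fewer, the 3 nearest patterns, and neighbours. The members and lists were chosen with earlier results of these data known.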

Additional observations from a re-analysis of the deposited data

How the results depend on the processing

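Of 378 member changes under other settings, 336 kept direction and call, 22 lost a call, 15 gained one and 5 reversed. Many of these could not reverse, because the setting left the group means as they were. That holds for the 4 arrays compared, replicate block, low-signal filter, array weights, intensity trend and leaving out an array of the group not compared. Averaging probe sets altered IGF1R alone. The 336 therefore do not measure how steady the directions were. Those reversed were IGFBP2 without INM replicate 2 (0.40 in INM versus hESC and -0.046 in SMC versus INM), IGF2R without INM replicate 1 (0.033), IGFBP1 without SMC replicate 2 (-0.019) and IGFBP5 without INM replicate 2 (-0.58), the last 3 in SMC versus INM. With 1 array left out, IGFBP2 ran from -1.02 to 0.40 in INM versus hESC, and in SMC versus INM IGF2R ran from -0.35 to 0.033, IGFBP1 from -0.019 to 0.24, IGFBP2 from -0.046 to 1.38 and IGFBP5 from -0.58 to 2.38. The cause was not tested. In INM versus hESC, the calls of IGF1, IGFBP3 and IGFBP7 were made in all 14 alternatives, that of IGFBP5 in 13, IGF2R in 9 and IGFBP1 in 5; the IGFBP1 call ended with quantile normalization (-0.43, adjusted p = 0.0808) and array weights (adjusted p = 0.102). In SMC versus hESC, the calls of IGF1, IGFBP3, IGFBP5 and IGFBP7 were made in all 14. With only the 4 arrays compared, SMC versus INM gave 1 member called and 2541 genes in all, against 2 and 3874, and IGF1 was not called (adjusted p = 0.0737).

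With 1 array left out, called members ran from 3 to 7 in INM versus hESC and 0 to 5 in SMC versus INM (at 0, limma gave 2 at an unadjusted p under 0.05). Called genes of the other IGF lists ran from 8 to 24 in SMC versus INM and 19 to 36 in SMC versus hESC, and all called genes from 2939 to 7520, 1134 to 6143 and 3803 to 9200 in INM versus hESC, SMC versus INM and SMC versus hESC. A lone array is assumed to vary like the other groups. The INM pair did not: its pooled replicate SD was 0.31, against 0.15 in hESC and 0.13 in SMC. Calls that appear with 1 INM array therefore leave out the spread between the INM arrays.

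The share of calls that were higher in INM than in hESC was 56.1%, 46.0% with median centring and 66.1% with quantile normalization, which moved the median of all changes by 0.10. With the replicate block, 5, 2 and 4 members were called in the 3 comparisons, against 6, 2 and 4; IGFBP1 in INM versus hESC was lost (adjusted p = 0.0692). Same-numbered arrays did not deviate together: the correlations of their differences across genes were 0.07, -0.12 and -0.07, so the numbers were not taken as pairs.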
